A study of Homo sapiens with 7 samples.

Results

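The G2/M and mitosis genes are 46 genes whose products carry a cell from late G2 through chromosome segregation to cytokinesis. They were chosen by symbol from a list that named them, and each matched a single row among the 57773 gene rows of the count table. All 46 were among the 16198 genes that passed the filter on low counts. Counts of a member in a library ran between 255 (HMMR) and 19496 (MKI67).

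As background, entry into mitosis is driven by CDK1 bound to cyclin B, which is held inactive by phosphorylation until CDC25 phosphatases remove it. Aurora and Polo-like kinases then build the spindle, kinetochores attach chromosomes to its microtubules, and the spindle checkpoint delays the anaphase-promoting complex until every kinetochore is attached. The transcripts of most of these genes peak in G2 and mitosis, so their bulk level follows both the share of cells in those phases and the RNA of each gene per cell. A change in the share of cells in G2 and mitosis and a change in RNA per cell cannot be told apart in bulk libraries.

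The study concerned APE1, a base-excision repair endonuclease encoded by APEX1, in MDA-MB-231, an established human triple-negative breast cancer cell line. RNA was sequenced in 2 libraries labelled KD and 3 labelled parent, all from that line, and 2 ChIP libraries were not analysed here. The labels neither spell out KD nor name its target. Their treatment text describes APE1-knockout cells given doxycycline-inducible APE1 or its mutants, without saying whether either RNA group received such a vector. Whether the KD cells are 1 clone, and whether replicates came from separate cultures, is not given in the sources used here, so p-values measure the spread between these libraries, which may be technical.

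Library totals were 14677006 and 15502425 counts in KD, against 15890435, 14601078 and 18049386 in parent. APEX1 had 43.3 and 48.3 CPM (the usual depth-scaled count, here on totals also scaled for library composition) in KD replicates 1 and 2, against 124, 132 and 135 CPM in parent replicates 1 to 3, which is 2.84-fold lower in KD (log2 fold change -1.51 ± 0.0727 SE, edgeR adjusted p = 5.9e-05). VIM stood at 2147 to 2381 CPM over the 5 libraries and ESR1 at 0 in each, as known for this line. Of the other markers listed as low for it, PGR stood at 0 to 0.137 CPM, whereas ERBB2 was detected at 122 to 166 CPM. CDH1, also listed as low, had 128 and 105 counts in KD, against 59, 55 and 54 in parent (3.02 to 8.67 CPM). Of 7 markers of other cell types, 6 were at 0 in every library.

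Of the 46 genes, 7 rose in KD and 0 fell at an edgeR adjusted p under 0.05. They were AURKA, NDC80, CDC25B, KIF20A, CCNB1, CDCA3 and DLGAP5, at 1.17- to 1.82-fold. That is 15.2% of the members higher, where 9.15% of all tested genes were called higher and 12.4% lower. At an unadjusted edgeR p under 0.05, 15 members were higher and 2 lower, beside 16.5% and 18.8% of all tested genes. DESeq2 called 6 members higher and 0 lower, beside 5.08% and 8.93% of its genes. The median log2 fold change was 0.08 over the members and 0.00085 over all tested genes, with 30 members above 0 and 16 below. Both KD libraries lay above every parent library for 19 members (41.3%), beside 25.3% of all tested genes, and below every parent library for 5 members (10.9%), beside 26.1%.

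**Figure D1:**
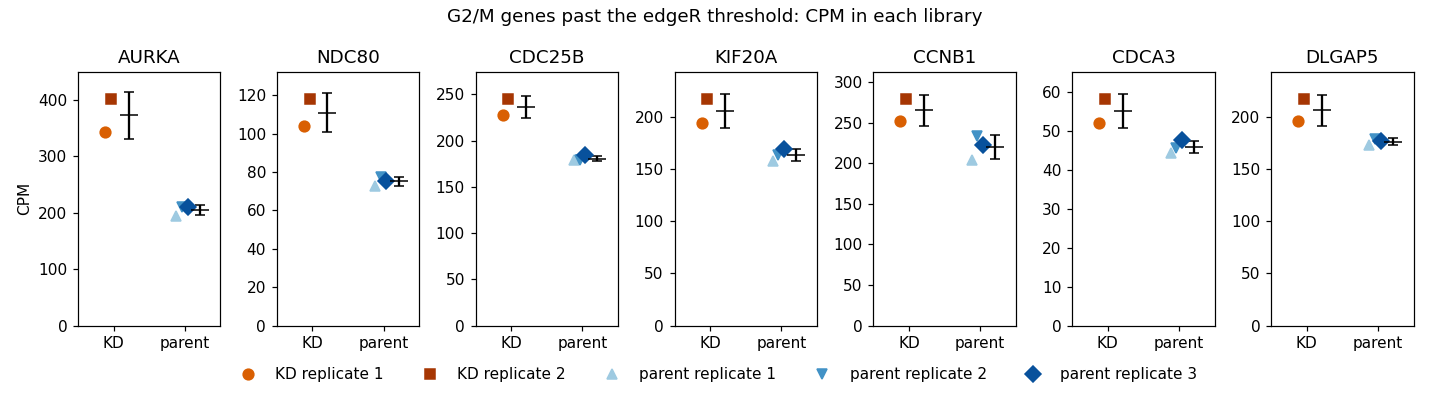
CPM (vertical axis, from 0, a scale per panel) of the 7 genes past the edgeR threshold, with a point for each library, KD left of parent, and bars for the mean ± SD (n = 2 KD, n = 3 parent). In every panel both KD points lie above all 3 parent points, and KD replicate 2 above KD replicate 1, as for AURKA with 343 and 401 CPM in KD against 194 to 210 CPM in parent.

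Many promoters of this class carry the cell cycle homology region (CHR), the site of the MuvB complexes that repress these genes in quiescence and activate them in G2, and upstream CCAAT boxes bound by NF-Y. RefSeq promoter windows (GRCh38.p14, 250 bases before to 50 after each start) were matched for 40 members, with 50 windows. TTTGAA or TTTAAA, searched on both strands, was found in 76.0% of the member windows, 17.1% of the 14557 windows of other tested genes and 24.0% of all 35116 windows. TTTGAA alone was found in 62.0%, 10.2% and 15.2% of these windows. CCAAT on either strand was found in 76.0% of member windows, 34.4% of those of other tested genes and 34.6% of all windows, and 2 or more CCAAT in 42.0%, 11.9% and 10.8%. GGCGG on either strand was found in 98.0% of member windows, 81.3% of those of other tested genes and 59.0% of all windows, and GGCGG 4 bases before a CHR in 8.00%, 0.0962% and 0.0797%. A G-quadruplex motif, 4 runs of at least 3 G with 1 to 7 bases between them on either strand, was found in 22.0% of member windows, 34.0% of those of other tested genes and 25.0% of all windows. By gene, where any matching window sufficed, TTTGAA or TTTAAA was found for 6 of the 6 called members with an entry and 28 of the 34 others. Both kinds of member thus carried it, beside 21.2% of other tested genes and 27.9% of all genes. TTTGAA alone was found for 3 of these 6 called members and 25 of the 34 others, beside 13.4% of other tested genes and 18.2% of all genes. CDC25B, counted among the 6, had 4 windows, most of which carried neither TTTGAA nor TTTAAA. AURKA had no entry.

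The stretches below run from 150 bases before to 50 after the start on the gene's own strand in GRCh38.p14. They are those of the 5 called members with 1 matched window, whatever their letters. CDC25B, with 4 windows, and AURKA, with no entry, are not shown. Capitals mark the CHR letters searched above and CCAAT, read on either strand, so that a match on the other strand appears as its reverse complement. CCNB1 and KIF20A each have a TTTAAA behind a pair of CCAAT boxes, whereas NDC80 has a reversed TTTGAA and no CCAAT in this stretch.
CCNB1, chr5:69167000-69167199, plus strand: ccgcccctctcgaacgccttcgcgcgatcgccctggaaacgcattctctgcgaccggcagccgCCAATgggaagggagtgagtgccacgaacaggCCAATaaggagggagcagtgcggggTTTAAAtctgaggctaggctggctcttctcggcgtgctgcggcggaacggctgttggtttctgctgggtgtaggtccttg
KIF20A, chr5:138178962-138179161, plus strand: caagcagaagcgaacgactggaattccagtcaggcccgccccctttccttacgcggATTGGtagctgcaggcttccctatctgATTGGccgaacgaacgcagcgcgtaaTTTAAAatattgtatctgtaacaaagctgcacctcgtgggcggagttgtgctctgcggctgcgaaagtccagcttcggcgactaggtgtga
CDCA3, chr12:6851237-6851436, minus strand: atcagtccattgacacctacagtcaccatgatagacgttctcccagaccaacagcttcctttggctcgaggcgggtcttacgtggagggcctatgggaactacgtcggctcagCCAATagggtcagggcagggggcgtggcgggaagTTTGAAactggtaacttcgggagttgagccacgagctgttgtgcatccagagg
DLGAP5, chr14:55191536-55191735, minus strand: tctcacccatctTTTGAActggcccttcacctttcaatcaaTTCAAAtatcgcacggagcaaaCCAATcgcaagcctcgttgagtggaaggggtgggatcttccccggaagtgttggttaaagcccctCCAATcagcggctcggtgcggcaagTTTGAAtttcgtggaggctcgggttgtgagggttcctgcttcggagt
NDC80, chr18:2571407-2571606, plus strand: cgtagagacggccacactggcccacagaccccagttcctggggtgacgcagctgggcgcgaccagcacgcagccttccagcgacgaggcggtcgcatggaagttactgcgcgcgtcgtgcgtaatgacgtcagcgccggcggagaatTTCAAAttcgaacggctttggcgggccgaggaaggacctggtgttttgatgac

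Among the 8 genes of the CDK1 switch, 3 rose and none fell, where 9.15% of all tested genes were called higher and 12.4% lower. The counts for this and the following roles rest on few genes and were not tested against those shares. CDC25B (ENSG00000101224), a phosphatase that activates CDK1 at the start of mitosis, had 228 and 245 CPM in KD, against 179, 179 and 184 CPM in parent. The groups did not overlap, and it was 1.31-fold higher in KD (log2 fold change 0.39 ± 0.0496 SE, edgeR adjusted p = 0.00237), past the threshold in 10 of 10 alternative fits. CCNB1 (ENSG00000134057), which encodes cyclin B1, had 252 and 279 CPM in KD, against 204, 234 and 222 CPM in parent. Both KD libraries lay above parent, and it was 1.21-fold higher (0.27 ± 0.0732 SE, edgeR adjusted p = 0.0405). CDCA3 (ENSG00000111665), part of a ubiquitin ligase that removes the CDK1 inhibitor WEE1, had 52.1 and 58.3 CPM in KD, against 44.5, 45.6 and 47.7 CPM in parent. It was 1.20-fold higher (0.27 ± 0.0753 SE, edgeR adjusted p = 0.0476). Leaving out a library ended the CCNB1 call each time (adjusted p 0.0518 to 0.242), and CDCA3 and DLGAP5 passed in 2 and 5 of the 10 alternatives.

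CDK1 itself, the catalytic kinase, did not pass. It had 101 and 108 CPM in KD, against 108, 117 and 115 CPM in parent (log2 fold change -0.12, edgeR adjusted p = 0.205). The remaining members of the switch were CCNB2, CCNA2, CDC25C and FOXM1, the transcription factor that drives many of these genes. Their log2 fold changes were 0.16, -0.05, 0.23 and -0.02, with edgeR adjusted p of 0.110, 0.689, 0.0912 and 0.846. Whether the changes of CDC25B and CCNB1 differ from those of CDK1 and FOXM1 was not tested.

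AURKA (ENSG00000087586), the Aurora kinase that matures centrosomes and builds the spindle, changed most of all members. It had 343 and 401 CPM in KD, against 194, 210 and 210 CPM in parent, with means of 372 ± 41.3 CPM (SD, n = 2) and 205 ± 8.98 CPM (SD, n = 3). It was 1.82-fold higher in KD (log2 fold change 0.86 ± 0.0756 SE, edgeR adjusted p = 5.3e-04) and passed in 10 of 10 alternatives. TPX2, the spindle protein that activates AURKA, had 444 and 500 CPM in KD, against 427, 438 and 439 CPM in parent. Both KD libraries lay above parent, but it did not pass (0.12, edgeR adjusted p = 0.211). PLK1, the Polo-like kinase of mitotic entry, had 140 and 168 CPM in KD, against 139, 148 and 161 CPM in parent, and NEK2, a kinase of centrosome separation, had a log2 fold change of 0.08 (edgeR adjusted p of 0.765 and 0.557).

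None of the 3 genes of the chromosomal passenger complex, which corrects faulty attachments, and none of the 5 spindle checkpoint genes passed. CDCA8, the passenger subunit borealin, had 111 and 129 CPM in KD, against 83.0, 95.6 and 108 CPM in parent. The KD libraries were above parent, but the parent libraries spread more for CDCA8 than for any other member (SD 13.2% of the mean), and its edgeR adjusted p was 0.0931, or 0.0370 without parent replicate 3. AURKB, the kinase of that complex, had a log2 fold change of -0.01 and INCENP, its scaffold, 0.08. MAD2L1, the checkpoint protein that sequesters CDC20, had 75.4 and 76.3 CPM in KD, against 80.3, 88.3 and 88.2 CPM in parent. Both KD libraries lay below parent (-0.17, edgeR adjusted p = 0.108), and without parent replicate 1 its call was lower at an adjusted p of 0.0404. The checkpoint kinases TTK and BUB1 had log2 fold changes of -0.12 and -0.03, BUB1B of 0.14 and BUB3 of -0.08.

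At the kinetochore and centromere, 1 of 7 genes rose (14.3%), beside 9.15% of all tested genes. NDC80 (ENSG00000080986), the subunit of the NDC80 complex that grips microtubules, had 104 and 118 CPM in KD, against 72.7, 77.3 and 75.4 CPM in parent. It was 1.48-fold higher in KD (log2 fold change 0.56 ± 0.0684 SE, edgeR adjusted p = 0.00194) and passed in 10 of 10 alternatives. Of its 3 partners in the same complex, NUF2 and SPC25 did not pass, and SPC24, given with the related genes, did. NUF2 had 49.7 and 54.2 CPM in KD, against 50.2, 52.3 and 52.4 CPM in parent (0.0089, edgeR adjusted p = 0.947), and SPC25 had a log2 fold change of -0.09 (edgeR adjusted p = 0.599). CENPE, a kinetochore motor, and CENPF, a large kinetochore protein, had log2 fold changes of 0.18 and 0.17 with edgeR adjusted p of 0.101 and 0.0953. CENPA, the centromeric histone, and SGOL1, the protector of centromeric cohesion, are described with the KD libraries.

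Ratios of counts between partners within a library do not depend on its depth; the pairs were chosen after their values were seen, so the ratios are a description with no test. The AURKA to TPX2 ratio was 0.771 and 0.802 in KD, against 0.455, 0.480 and 0.478 in parent, and AURKA to AURKB was 5.28 and 5.25 in KD, against 2.79, 3.04 and 2.81. NDC80 to NUF2 was 2.10 and 2.17 in KD, against 1.45, 1.48 and 1.44 in parent, and NDC80 to SPC25 was 3.43 and 3.40 in KD, against 2.39, 2.12 and 2.05. None of these 4 ratios overlapped between the groups, and no share over other pairs of genes was computed. The CDC25B to CDC25C ratio was 10.3 and 10.8 in KD, against 9.01, 9.01 and 10.2 in parent. CCNB1 to CCNB2 was 2.73 and 2.75 in KD, against 2.36, 2.70 and 2.53 in parent. Neither of these ratios overlapped either, but each had a KD value close to the highest parent value. Transcript lengths differ, so these ratios compare libraries and not the level of one gene with another.

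None of the 3 genes of anaphase entry passed. CDC20, the activator of the anaphase-promoting complex, had 257 and 309 CPM in KD, against 201, 225 and 254 CPM in parent. Its KD libraries lay above parent by little at the closest (log2 fold change 0.32, edgeR adjusted p = 0.0909), and it passed without parent replicate 3 (adjusted p 0.0423). UBE2C, the ubiquitin-conjugating enzyme of that complex, had a log2 fold change of 0.17, and PTTG1, the securin that the complex destroys, of -0.09.

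Of 7 kinesin motors, 1 rose (14.3%), beside 9.15% of all tested genes. KIF20A (ENSG00000112984), a kinesin of the central spindle, had 194 and 217 CPM in KD, against 158, 163 and 169 CPM in parent. It was 1.26-fold higher (log2 fold change 0.33 ± 0.0605 SE, edgeR adjusted p = 0.0102) and passed in 9 of 10 alternatives, failing without KD replicate 2 (adjusted p 0.0901). KIF14, a kinesin of cytokinesis, had the lowest log2 fold change of the members. It had 83.8 and 88.5 CPM in KD, against 95.2, 97.3 and 106 CPM in parent (-0.21, edgeR adjusted p = 0.0689). KIF2C, which depolymerizes microtubules, and KIF4A, a chromosome-bound kinesin, had log2 fold changes of 0.18 and 0.16, and KIF11, KIF18A and KIF23 lay between -0.0011 and 0.02.

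Among 5 spindle microtubule proteins, DLGAP5 (ENSG00000126787), which stabilizes spindle fibres, had 196 and 217 CPM in KD, against 173, 179 and 177 CPM in parent. It was 1.17-fold higher (log2 fold change 0.23 ± 0.0550 SE, edgeR adjusted p = 0.0262). NUSAP1, a microtubule-bundling protein, had 196 and 209 CPM in KD, against 177, 183 and 183 CPM in parent. Its groups did not overlap, but its edgeR adjusted p was 0.0579. HMMR, PRC1 and CKAP2 had log2 fold changes of 0.20, 0.0061 and -0.10. The cytokinesis genes ECT2, the activator of RhoA at the cleavage furrow, and ANLN, which encodes anillin, had -0.13 and 0.04, and ECT2 passed as lower without parent replicate 1 (-0.21, edgeR adjusted p 0.0346). Of the mitotic chromosome genes, TOP2A, the decatenating topoisomerase, had 766 and 864 CPM in KD, against 709, 758 and 750 CPM in parent (0.14, edgeR adjusted p = 0.177). MKI67, the proliferation marker Ki-67, had 892 and 1050 CPM in KD, against 972, 919 and 1089 CPM in parent, with overlapping groups (-0.03, edgeR adjusted p = 0.845).

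**Figure D2:**
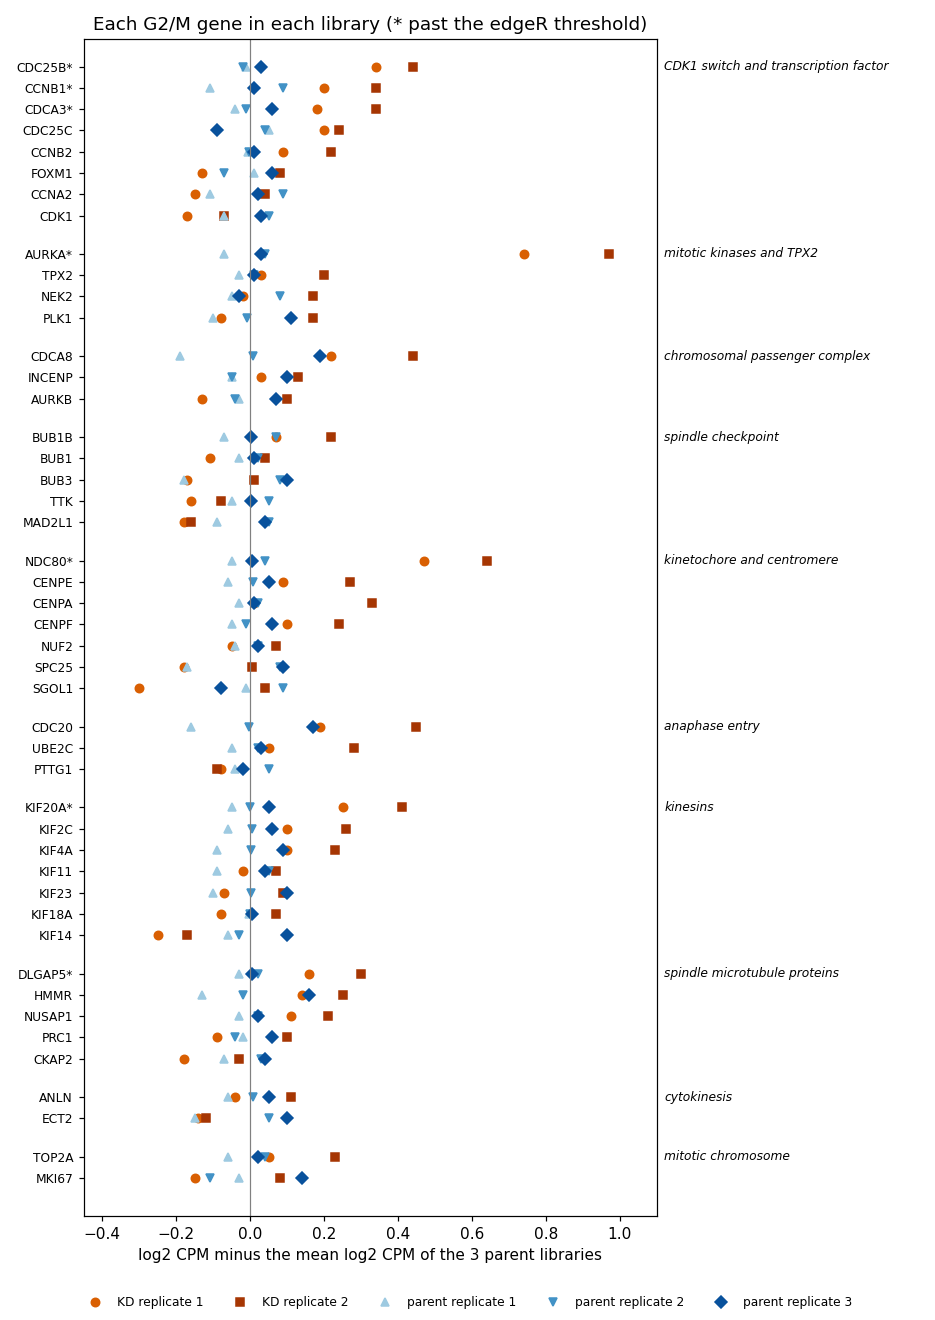
Each of the 46 genes in each of the 5 libraries on the horizontal axis as log2 CPM minus the mean log2 CPM of the parent libraries (pseudocount 0.5 CPM), with genes down the page by role, KD in orange and brown and parent in blue. The KD points of AURKA and NDC80 lie farthest to the right, and KD replicate 2 (squares) lies right of KD replicate 1 (circles) for 45 of the 46 genes.

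The KD libraries differed from each other across nearly the whole group. KD replicate 2 was above KD replicate 1 for 45 of 46 members (97.8%), beside 49.0% of all tested genes, and PTTG1 was the exception. The excess had a median of 11.5% and ran between -0.753% (PTTG1) and 27.1% (SGOL1). The median over members, as log2 relative to the parent mean, was -0.0056 in KD replicate 1 and 0.17 in KD replicate 2, against -0.05, 0.02 and 0.04 in parent replicates 1 to 3. Over all tested genes these medians lay between -0.0039 and 0.0069. KD replicate 1 was above every parent library for 19 members and below every one for 16, beside 34.8% and 36.1% of all tested genes, so its count below was near the background. KD replicate 2 was above every parent library for 33 members and below every one for 5, beside 35.5% and 34.8%. Parent replicate 1 was the lowest parent library for 39 of 46 members, beside 34.6% of all tested genes.

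SGOL1 had the widest gap, with 24.1 and 30.6 CPM in KD, against 29.5, 31.8 and 28.1 CPM in parent. One KD library lay below and the other within the parent values. CENPA had 30.5 and 38.1 CPM in KD, against 29.7, 30.6 and 30.5 CPM in parent, so KD replicate 2 alone stood apart from parent. CDC20, PLK1 and MKI67, with values given above, completed the 5 widest gaps. The 54 tested genes of G1/S and replication, another list of cell cycle genes, differed in the same direction between the KD libraries. KD replicate 2 was above KD replicate 1 for 51 of them (94.4%), with a median log2 gap of 0.16, beside 0.16 for the members. The part of this gap between KD libraries in the results was not tested.

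**Figure D3:**
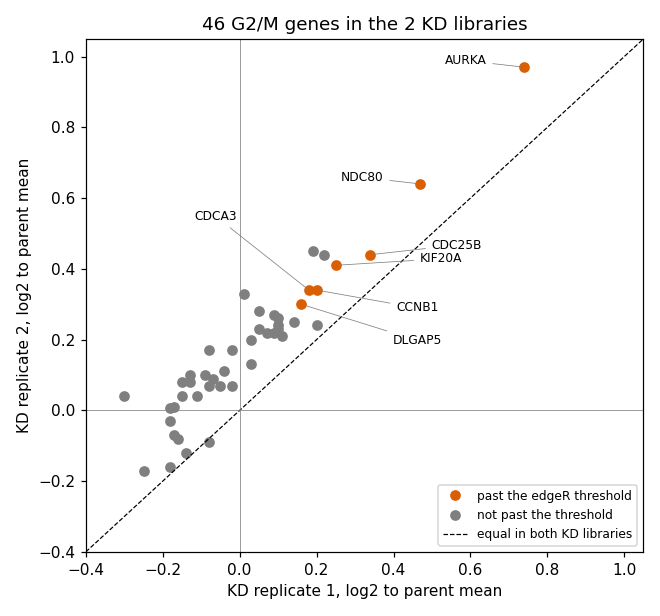
The 46 genes by log2 CPM relative to the parent mean in KD replicate 1 (horizontal axis) and KD replicate 2 (vertical axis), with the 7 called genes in orange and the dashed line marking equal values. Of the 46 points, 45 lie above the line.

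**Figure D4:**
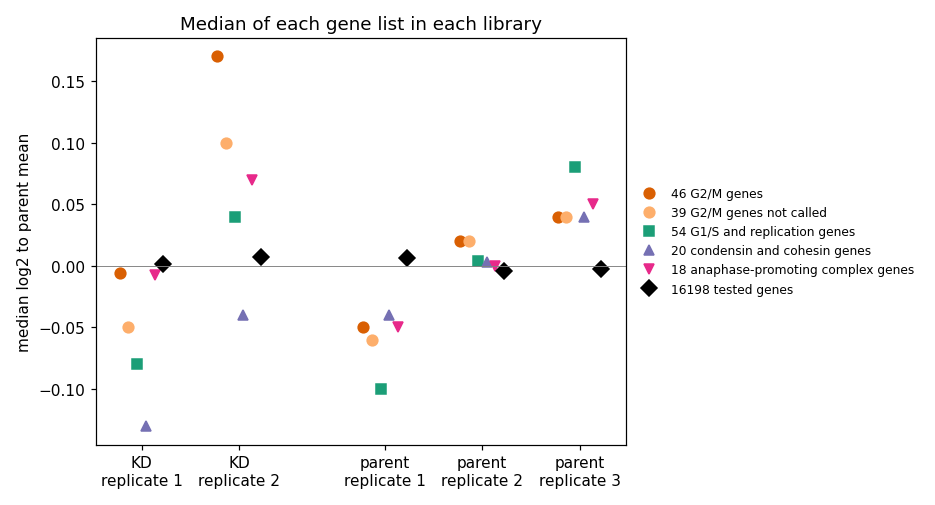
Median log2 CPM relative to the parent mean (vertical axis) of gene lists in each library, KD left of parent. The members stand at -0.0056 and 0.17 in the KD libraries and between -0.05 and 0.04 in the parent libraries, and all tested genes stay near 0.

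The calls were recounted with each library left out. Without KD replicate 1, 5 members were called higher (3.29% of all tested genes) and the member median was 0.17; without KD replicate 2, 3 were (4.49%) and the median was -0.0073. Without parent replicate 1, 4 were called higher (8.85%), and 2, MAD2L1 and ECT2, lower (12.3%). Without parent replicate 2, 4 were called higher (4.42%), and without parent replicate 3, 6 (6.68%). AURKA, NDC80 and CDC25B were called in each of these 5 fits, and without KD replicate 2 they were the only members called. The 39 members that did not pass ran between -0.21 (KIF14) and 0.33 (CDCA8) on the log2 scale. The authors' deposited table had, at an adjusted p under 0.05, 6 members higher, where 4.93% of its genes were, and 0 lower, where 8.66% were. The called member missing from that count was CDCA3.

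AURKA lies on chromosome 20 among genes that were also higher in KD. Gene order was taken from RefSeq (GRCh38.p14), and the 10 tested genes on either side were read for each member. The 20 neighbours of AURKA had a median log2 fold change of 0.52 (1.43-fold), the highest of the 46 members, with 12 called higher and 1 lower, NFATC2 at -2.23. Their median was 0.50 in KD replicate 1 and 0.47 in KD replicate 2. The genes next to it, named after their values were seen, were FAM210B with 141 ± 2.62 CPM in KD (SD, n = 2) against 74.5 ± 6.97 CPM in parent (SD, n = 3), and CSTF1 with 85.3 ± 1.17 CPM in KD against 58.5 ± 3.05 CPM in parent. The AURKA log2 fold change exceeded its neighbours' median by 0.34. The part of the neighbourhood in the AURKA result was not tested.

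CDC25B, on the same chromosome, had the second highest neighbour median, 0.20, with 6 of 20 called higher and 0 lower. Chromosome 20 had a median of 0.08 over its 375 tested genes, with 87 called higher and 34 lower. Over all tested genes, 9.15% were called higher and 12.4% lower. NDC80, on chromosome 18, had 0.12 over 19 neighbours and exceeded it by 0.44. That chromosome had a median of -0.33 over its 201 tested genes, with 18 called higher and 90 lower. CCNB1, KIF20A, CDCA3 and DLGAP5 had neighbour medians of -0.14, 0.05, 0.10 and 0.03. TPX2 and UBE2C, the other members on chromosome 20, had 0.08 and 0.06, and the median over the 46 members was -0.03.

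**Figure D5:**
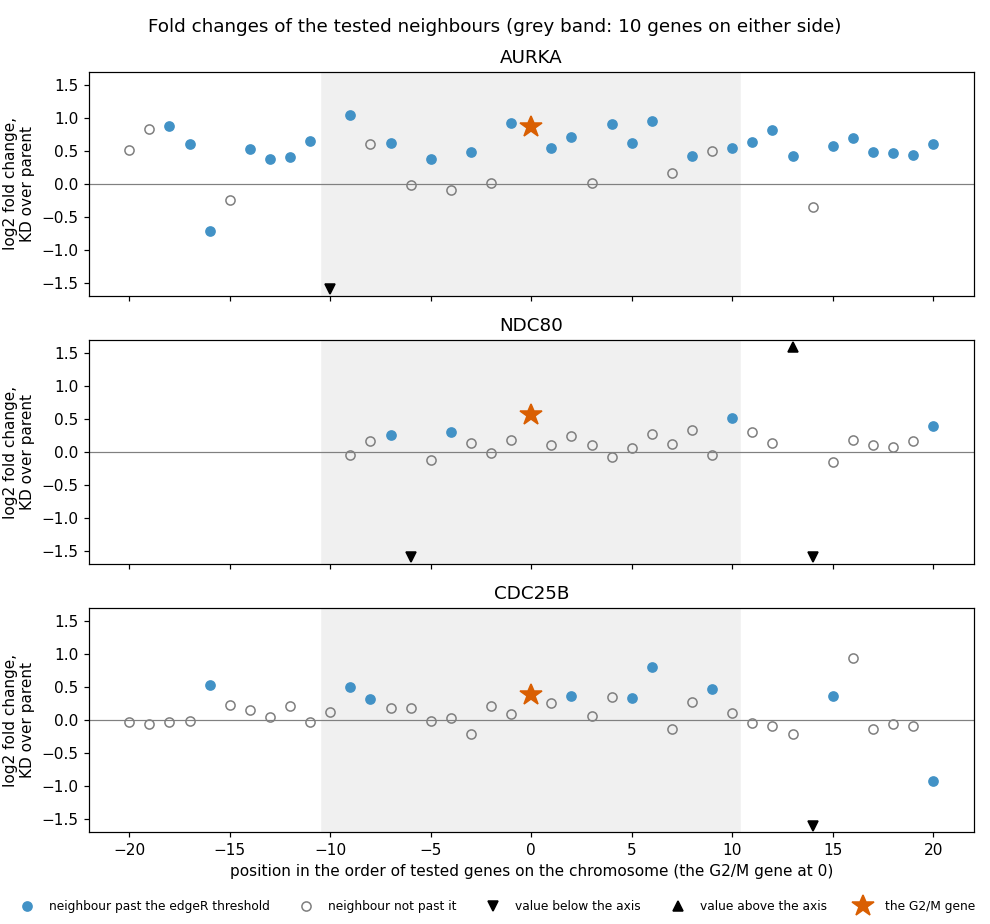
Log2 fold change, KD over parent, of up to 20 tested genes on either side of AURKA, NDC80 and CDC25B (stars at position 0), by position in RefSeq order. Filled points passed the edgeR threshold, triangles mark values beyond the axis, and the grey band holds the 10 genes on either side, whose medians are 0.52 for AURKA, 0.12 for NDC80 and 0.20 for CDC25B.

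Other genes of the same processes, were read from lists of related genes, beside 9.15% of all tested genes called higher and 12.4% lower. Of 22 other CDK1 regulators, 1 was higher and 3 lower: the repressor E2F7 was 1.48-fold lower in KD (edgeR adjusted p = 0.00385), ARPP19, an inhibitor of the phosphatase that opposes CDK1, 1.18-fold lower and RBL1 1.21-fold lower. Of 39 other kinetochore and centromere genes, 4 were higher (10.3%) and 5 lower (12.8%), shares near those of all genes. Among them were SKA1 at 1.80-fold lower, KNTC1 at 1.22-fold lower and SPC24, a subunit of the NDC80 complex, at 1.20-fold higher (edgeR adjusted p of 0.00468, 0.0183 and 0.0227). Of 18 genes of the anaphase-promoting complex and its partners, 2 were higher, FZR1 at 1.23-fold and ANAPC2 at 1.24-fold, and none lower. Of 37 genes listed as other spindle and cytokinesis genes, 6 were higher (16.2%) and 1 lower (2.70%). KIFC1 was 1.28-fold and TACC3, an AURKA substrate, 1.21-fold higher. The lower gene was CDCA7L at 1.37-fold, which is in the list but is not known as a spindle or cytokinesis protein. Of 20 condensin and cohesin genes, 0 were higher and 2 lower, SMC3 at 1.16-fold and NIPBL at 1.15-fold. Of the 54 G1/S and replication genes, 2 were higher and 2 lower: CDK6 was 1.97-fold lower and CCND1, which encodes cyclin D1, 1.65-fold lower, while TYMS was 1.23-fold higher. The list medians lay between -0.07 (condensin and cohesin) and 0.04 (other spindle and cytokinesis genes).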

How the data were processed

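Per the submitters' processing notes, the authors used STAR, DESeq2 and the hg19 build; which program counted reads, on which annotation and whether by strand, is not stated in these sources. The gene table the authors deposited holds whole numbers, assumed here to be expected counts that were not normalized. The transcript table was not used. The authors' deposited comparison table gives, per the file headers, mean normalized signal, log2 fold changes with their errors, a Wald score and p-values, and only its fold changes and adjusted p-values were used here.

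All 57773 gene rows entered filterByExpr (minimum count 10), which left 16198, and edgeR 4.0.16 (R 4.3.3) fitted KD against parent with TMM factors, glmQLFit and glmQLFTest, with 3 residual degrees of freedom and Benjamini-Hochberg adjustment over all tested genes (threshold 0.05). Rounding left the counts as deposited. CPM used TMM-scaled totals, and log2 values per library used a pseudocount of 0.5. A count of 3 corresponded to 0.168 to 0.205 CPM. The code was tested on simulated data. Alternatives were DESeq2 1.42.0, other scalings, no filter, a replicate block and each library left out.

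The members and lists were chosen with earlier results of these data known, so no test was made over a list. The genes followed through the alternatives were APEX1, called members, the member of smallest p per role, and the highest and lowest change. The 5 widest gaps between KD libraries, members whose call changed under an alternative, and up to 3 called genes per comparison list were added. The remaining members were named with their values only. Rows for gene copies named after a member held at most 3.25% of its count (KIF4B beside KIF4A). Of the called members, KIF20A, CDCA3, CCNB1 and NDC80 overlap CDC23, GNB3, LOC124901203 and KATNBL1P3. Several members not called overlap other genes too, such as CCNA2 with EXOSC9 and FOXM1 with ITFG2 and RHNO1. No library pair of a group agreed within sampling noise (chi-square per degree of freedom of at least 4.03).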

Additional observations from a re-analysis of the deposited data

How the results depend on the processing

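The number of genes called higher in KD was 982 with DESeq2 and 553 to 1413 with a library left out, and the number called lower was 1270 to 1970 with a library left out. Members called higher numbered 4 without the filter (3.47% of all genes fitted), 14 with the replicate block (10.5%) and 3 to 6 with a library left out (3.29% to 8.85%), and members called lower 0 to 2 with a library left out (7.55% to 12.3%). The samples share only a number: over the pairs of the same number, deviations from the group means correlated at 0.0868 and -0.018, and the block called 1704 genes higher and 2236 lower. Of the 39 genes followed through the alternatives, MKI67, PLK1 and SGOL1 changed sign. MKI67 had a log2 fold change of 0.08 without KD replicate 1 and 0.04 without parent replicate 3. With the replicate block it had 0.03, and with a library left out it ran between -0.16 and 0.08. PLK1 had -0.09 without KD replicate 2 and -0.01 without parent replicate 1 (-0.09 to 0.17), and SGOL1 0.04 without KD replicate 1 (-0.30 to 0.04). The cause was not tested. Of 390 values for these 39 genes, 315 kept direction and side of the threshold, 57 lost the call, 12 gained it and 6 changed sign. Members outside these 39 also changed sign with a library left out. Examples are AURKB (-0.13 to 0.10), BUB1 (-0.11 to 0.04), CCNA2 (-0.15 to 0.03) and FOXM1 (-0.13 to 0.07). The neighbour median of AURKA was 0.52 with 5, 10 and 20 genes on either side, widths added after seeing the data.

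The KD group has 2 libraries, and the median gap between them over the members was 1.11-fold. Antisense and overlapping genes could not be separated, since strand use is not given.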
